A study of Rattus norvegicus with 5 samples.

Results

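The comparison described here set rat hearts 15 days after transverse aortic constriction (TAC) against rat hearts 10 days after the same surgery, using 2 of the 5 arrays of the study and no sham array. TAC narrows the aortic arch, so that the left ventricle pumps against raised pressure and enlarges. Each array was hybridized with Hy3-labelled total RNA from the hearts of 5 male SD rats, aged 6 to 8 weeks and weighing 200 to 300 g per the labels, and every animal in both groups had the constriction. The other 3 arrays (sham, TAC day 5 and TAC day 20) served to set a common scale and to show levels at other times. The TAC day 5 and day 20 arrays also gave 2-fold counts for the intervals before and after. The sham array is labelled as 5 days after surgery, although the header of its raw column carries day 15. With 1 array a side there is no spread between hearts, no test across samples and no p-value, and the array and the day cannot be told apart. All spots named as rat microRNAs (miRNAs) were taken, 678 probes with 4 spots each on both arrays.

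MiRNAs are short RNAs that load into Argonaute proteins and repress messenger RNAs, mostly through pairing of the seed, the bases from position 2 to 8 of the miRNA. A hairpin precursor gives a guide strand and often a rarer partner, marked on this array with a star. In the heart some miRNAs come almost wholly from cardiomyocytes, such as miR-1, miR-133a and those encoded in myosin genes. Others come from endothelial cells, fibroblasts, smooth muscle or blood, and each of these cell types can change in number while the ventricle adapts to pressure. In whole-heart RNA, fewer cells of a type and less of an RNA per cell cannot be told apart.

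The mature sequences below are those of miRNAs on which the comparison turns, taken from RefSeq with its GRCr8 rat assembly. They are written 5′ to 3′, with the seed in capitals. The first 9 belong to miRNAs that read 2-fold or more higher on day 15, and the next 4 to miRNAs that read 2-fold or more lower. The last 2 are close relatives of let-7f that stayed within 2-fold.
miR-144: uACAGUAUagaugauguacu
miR-101a: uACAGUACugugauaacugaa
miR-451: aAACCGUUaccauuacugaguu
miR-181a: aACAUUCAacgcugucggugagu
miR-181a-2*: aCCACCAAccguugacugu
miR-130a: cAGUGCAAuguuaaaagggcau
miR-499: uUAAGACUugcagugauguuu
miR-125b-5p: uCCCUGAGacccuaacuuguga
miR-325-3p: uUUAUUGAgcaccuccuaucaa
let-7f: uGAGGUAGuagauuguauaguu
miR-183: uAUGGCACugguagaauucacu
miR-17-5p: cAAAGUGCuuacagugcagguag
miR-1188-3p: cGAGGCUCcccaccaca
let-7a: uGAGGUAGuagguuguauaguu
let-7c: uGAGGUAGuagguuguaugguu

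A miRNA counted as measured when its mean background-subtracted signal over 4 spots exceeded a floor, the median plus 3 scaled median absolute deviations of empty spots and negative controls on that array. That floor was 46.4 intensity units on each of the 2 arrays. On day 10, 213 of 678 miRNAs were above it, and on day 15, 207 were. On both arrays 192 were above it, 21 on day 10 alone, 15 on day 15 alone and 450 on neither. The muscle miRNAs miR-1, miR-133a, miR-208 and miR-499 were above the floor on both arrays.

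Between day 10 and day 15, erythroid miR-144 and miR-451, lymphocyte miR-150 and myosin-encoded miR-499 read higher, while let-7f, miR-183 and miR-34b* read lower. Of the 192 miRNAs measured on both arrays, 28 (14.6%) differed 2-fold or more, 17 higher on day 15 (8.85%) and 11 lower (5.73%). Higher miRNAs differed by 2.02-fold to 7.61-fold and lower ones by 2.10-fold to 2.85-fold. The remaining 164 lay within 2-fold, and the middle of the distribution was narrow, with a median log2 ratio of -0.04 and quartiles of -0.44 and 0.42. For the interval before, TAC day 10 against day 5, 38 of 152 (25%) passed 2-fold, 14 higher (9.21%) and 24 lower (15.8%). For the interval after, TAC day 20 against day 15, 11 of 206 (5.34%) did, 6 higher (2.91%) and 5 lower (2.43%). These intervals share an array with the comparison described here, so their counts stand side by side and were not tested against each other. The day 5 TAC array was the dimmest, with a median signal of 379 units over the 192 miRNAs, against 771.5 on day 10. Its counts and the normalised day 5 levels given below carry that limit.

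**Figure D1:**
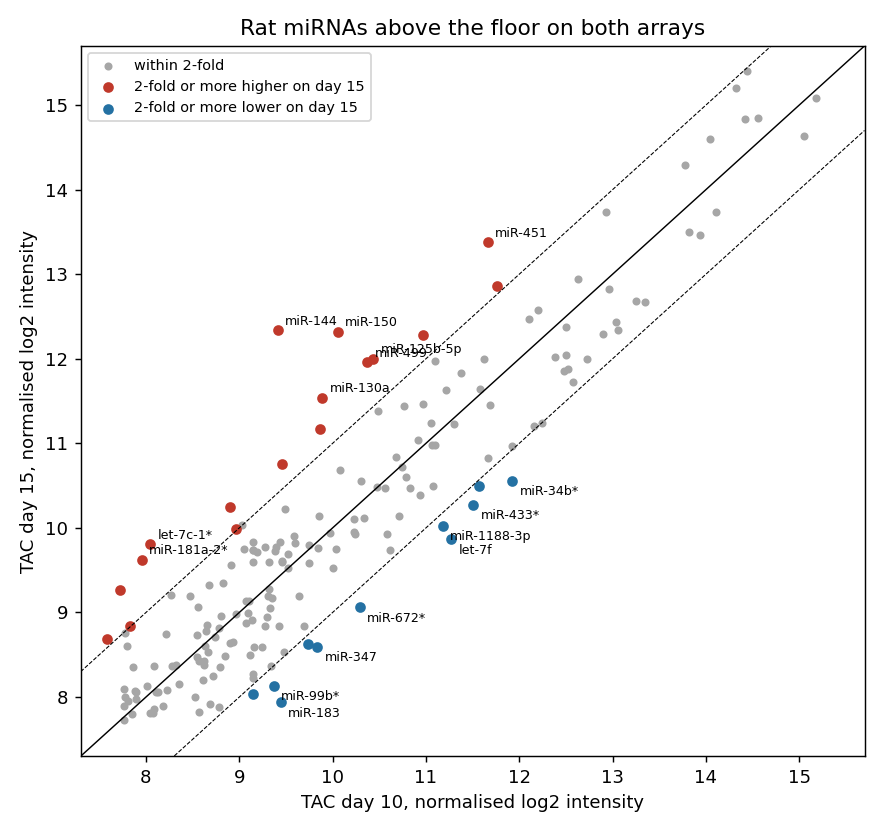
Normalised log2 intensity of the 192 miRNAs above the floor on both arrays, TAC day 10 on the horizontal and TAC day 15 on the vertical axis. The solid line marks equal values and the dashed lines 2-fold, and the 17 higher miRNAs reach farther from the line than the 11 lower ones, with miR-144 the farthest.

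Position on the slide and the scaling limit how far single ratios can be read. Each probe had 2 spots in blocks 1 to 18 of the slide and 2 in blocks 19 to 36. Before normalization the second block set was the brighter, with a median log2 gap of 1.09 on the day 10 array and of 0.66 on the day 15 array, while the sham array had 0.14. Taken separately, the block sets gave log2 ratios that correlated across the 192 miRNAs with Pearson's r of 0.35 and Spearman's rho of 0.31, a description over miRNAs that share both arrays. In 107 of 192 miRNAs (55.7%) both block sets gave the same sign. Of the 164 within 2-fold, 79 did. All those past 2-fold did, but they were picked on the mean over the same spots. The sign of a single miRNA within 2-fold is thus poorly set, and counts of signs in the lists below carry that limit. Ratios of 2-fold or more in the same direction in both were found for 9 miRNAs on the higher side (4.69%) and 6 on the lower (3.12%). Synthetic spike-in controls, added RNAs of known sequence, read above the rat miRNAs by a further 1.30 on day 15 (median log2 difference over 38 probes above the floor). Scaling to them would lower every miRNA ratio, by a median of 1.03, so all directions given here are relative to the other rat miRNAs. The split of the calls also moved with the scaling and the block set. Of the miRNAs past 2-fold 60.7% were higher, and this share was 73.5% with median scaling, 71.9% with quantile normalization over all spots other than controls and 1.85% when scaled to the spike-ins. From blocks 1 to 18 alone it was 71.7% and from blocks 19 to 36 alone 43.4%.

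**Figure D2:**
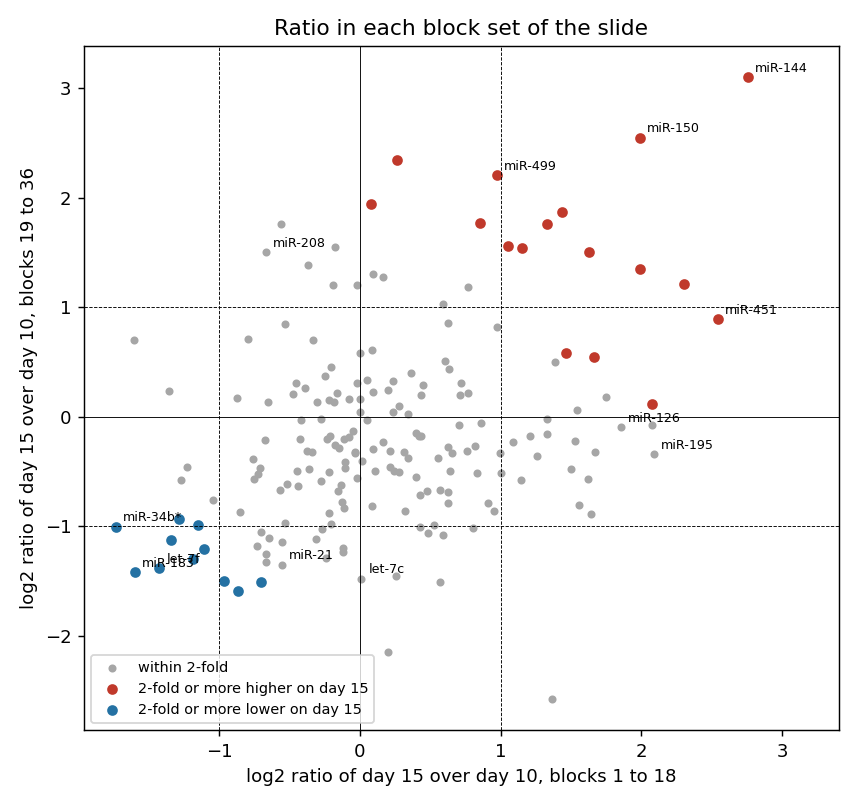
Log2 ratio of day 15 over day 10 from blocks 1 to 18 (horizontal) and from blocks 19 to 36 (vertical), one point per miRNA, with dashed lines at 2-fold. MiR-144 and miR-150 lie past 2-fold on both axes, whereas miR-126 and miR-195 are high only in blocks 1 to 18 and miR-208 only in blocks 19 to 36.

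The erythroid pair stood out among the higher miRNAs. MiR-144 is co-transcribed with miR-451 in red cell precursors, and miR-451 is abundant in mature red cells. On day 10 the 4 spots of miR-144 read 378, 182, 893 and 897 units after background subtraction, and on day 15 they read 3038, 2543, 10370 and 9040 units. Each day 15 spot lay above each day 10 spot, and the pairs from blocks 19 to 36 were the brighter ones on both arrays. The ratio was 7.61-fold (log2 ratio 2.93 ± 0.53, SE over spots, which is technical only). It was 2.76 in blocks 1 to 18 and 3.10 in blocks 19 to 36, and over 14 alternative ways of processing it ranged from 1.96 to 3.37. Among those alternatives, here and below, dropping or doubling the floor leaves a single ratio unchanged by design.

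MiR-451 read 1305, 623, 8544 and 10945 units on day 10 and 5866, 7154, 20757 and 21433 units on day 15. The spots of the 2 days overlapped, because the brighter block set of day 10 reached above the dimmer one of day 15, although day 15 was higher within each block set. Its log2 ratio was 1.72 ± 1.10, with 2.54 from blocks 1 to 18 and 0.89, under 2-fold, from blocks 19 to 36. The hairpins of the pair lie 89 bases apart on the plus strand of GRCr8, miR-144 at chr10:63459397-63459479 and miR-451 at chr10:63459569-63459640. Their partner miR-144* was below the floor on both days. The summed signal of the 3 erythroid probes was 5946 units on day 10 and 20086 on day 15. How much blood each pool of hearts held was not tested.

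Levels of this pair at other times are shown for orientation. The normalised log2 level of miR-144 was 9.85, 9.41, 12.34 and 12.25 on the TAC arrays of days 5, 10, 15 and 20, and 11.95 on the sham array. That of miR-451 was 10.24, 11.66, 13.38 and 13.38 in the same order, and 13.50 on sham. Both were thus low on the first pair of TAC arrays and near the sham level on the later pair, with no spread between hearts to judge either step.

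MiR-101a, which begins with the same 6 seed bases as miR-144 (ACAGUA) and differs at the seventh, also passed 2-fold, with a log2 ratio of 1.09 ± 1.04. Its ratio came from 1 block set, being 2.07 in blocks 1 to 18 but 0.11 in blocks 19 to 36. Among the 28 miRNAs past 2-fold, 23 had a sequence in the RefSeq table under a matching name. Those 23 had 23 different seeds of 7 bases, so no seed family was represented by more than 1 member.

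Leukocyte miRNAs read apart from each other rather than together. MiR-150, enriched in mature lymphocytes, gave the second-highest ratio: its spots read 865, 631, 1443 and 1121 units on day 10 and 3631, 2691, 8852 and 8592 units on day 15. Every day 15 spot was above every day 10 spot, and the difference was 4.82-fold (log2 ratio 2.27 ± 0.38), past 2-fold in both block sets (1.99 and 2.55) and under each of the 14 alternatives (1.22 to 2.69). MiR-181a, known for setting T cell receptor sensitivity, read 1.34 ± 0.80, with spots of 32, 161, 879 and 553 units on day 10 and 343, 546, 2048 and 2010 on day 15.

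Of 8 leukocyte miRNAs above the floor on both days, these 2 passed 2-fold higher and 0 lower, against 8.85% and 5.73% over all 192. The median of the 8 was 0.22 against -0.04 over all 192. MiR-142-3p, from a gene active in most blood cells, read 0.37 ± 0.55, and its partner miR-142-5p read 0.29 ± 0.41. Near even too was miR-146b, which answers to the inflammatory regulator NF-kappa-B (0.16 ± 0.78). The myeloid miR-223 read -0.66 ± 0.90. The summed signal of the 8 was 9737 units on day 10 and 16666 on day 15, and none of the 8 was below the floor on either day. The log2 level of miR-150 was 10.14, 10.05, 12.32 and 12.08 on the 4 TAC arrays in order of time and 11.29 on sham, so the later arrays read above sham.

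Both strands of the second miR-181a hairpin were past 2-fold higher. The star strand miR-181a-2* was near background on day 10, at -7, 4, 200 and 166 units, and read 511, 483, 892 and 860 units on day 15. Its log2 ratio of 1.67 ± 0.38 held in each block set (1.99 and 1.35), with all day 15 spots above all day 10 spots. Its size is poorly set, because plain background subtraction gave 4.86. MiR-181d lay just under the threshold, with 2.07 from blocks 1 to 18 against -0.07 from the other set, while miR-181b read -0.05 ± 0.24. The guide miR-181a is made from a second locus as well, so its signal is not that of 1 hairpin.

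MiR-499, encoded in an intron of a slow myosin heavy chain gene, was the muscle miRNA with the largest difference. Its spots read 329, 1008, 2572 and 2286 units on day 10 and 1081, 1484, 11803 and 13693 units on day 15. Day 15 was higher within each block set, but the lower day 15 spots overlapped the upper day 10 spots. The log2 ratio was 1.59 ± 0.99, being 0.97 in blocks 1 to 18 but 2.20 in blocks 19 to 36, and its partner strand miR-499* read 0.89 ± 0.62. Its log2 level was 9.85, 10.37, 11.96 and 11.87 on the 4 TAC arrays in order of time and 12.34 on sham.

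The other muscle miRNAs stayed within 2-fold. Of 10 muscle-enriched probes above the floor, 1 passed 2-fold higher and 0 lower, close to the 8.85% and 5.73% over all 192. The median was -0.06. MiR-1, which restrains cardiomyocyte growth, read 13462 units on day 10 and 13415 on day 15 (log2 ratio -0.33 ± 0.20). MiR-133a, made from the same transcripts, read 42009 and 30619 units (-0.42 ± 0.14). The sign of miR-1 turned with quantile normalization over all spots other than controls (0.25), and that of miR-133a did not (-0.22). MiR-206, best known from skeletal muscle, read -0.84 ± 0.22 with every day 15 spot below every day 10 spot.

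MiR-208, from an intron of the alpha myosin gene, read 26909 and 41449 units (0.42 ± 0.64), and its block sets had opposite signs (-0.67 and 1.50). It had 2 of its day 15 spots at the ceiling of the scanner scale. MiR-208b-3p, from the beta myosin gene that hypertrophic hearts switch on, read 4280 and 2580 units (-0.23 ± 0.72). These 2 and miR-499 share the first 6 seed bases (UAAGAC), and the ratio of miR-208 has no upper limit in blocks 19 to 36 because of the ceiling. The summed signal of the muscle probes was 144707 units on day 10 and 144339 on day 15.

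**Figure D3:**
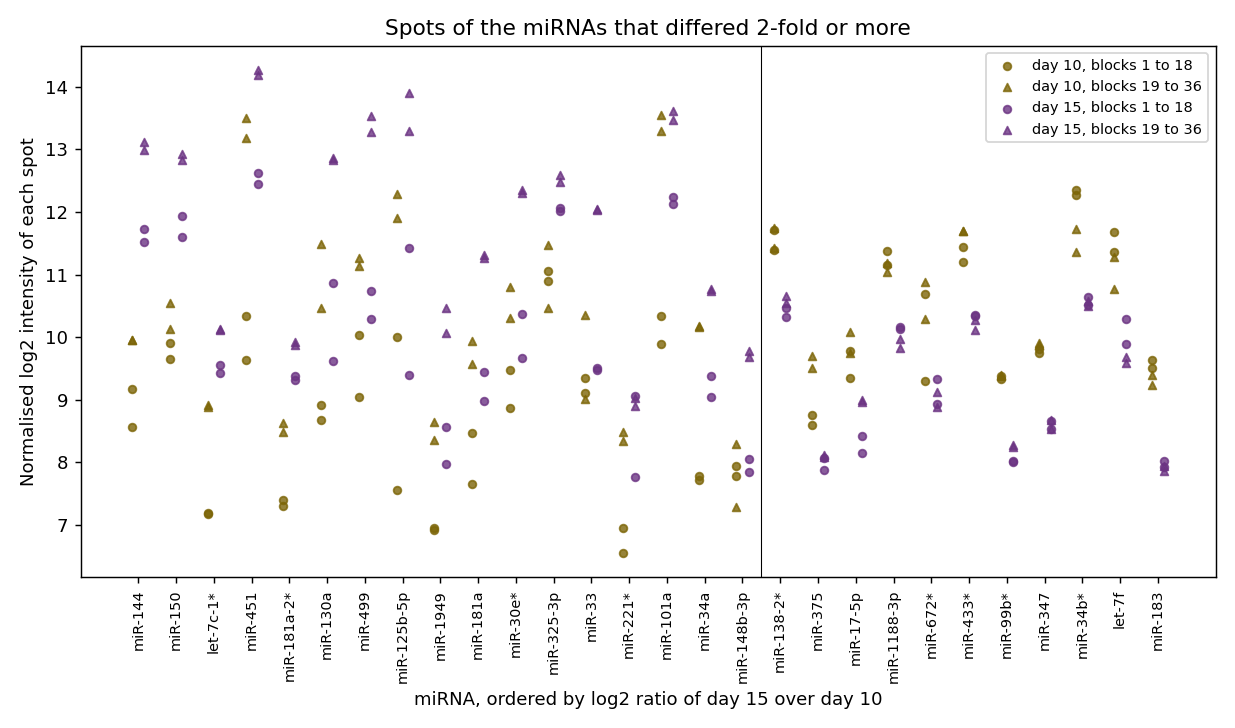
Normalised log2 intensity of every spot of the 28 miRNAs that differed 2-fold or more, ordered by ratio, with day 10 and day 15 side by side and the block sets as circles and triangles. The 2 days do not overlap for 5 of the 17 higher and 10 of the 11 lower miRNAs, and the higher miRNAs spread widely between block sets. Over all 192 miRNAs, day 15 lay wholly above day 10 in 3.65% and wholly below in 14.1%.

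Endothelial, smooth muscle and stromal miRNAs measured on both days stayed within 2-fold in the marker lists. MiR-126, the main endothelial miRNA, read 12443, 4901, 65383 and 65387 units on day 10 and 32506, 33075, 50935 and 50893 on day 15. Its upper day 10 spots had reached the ceiling, and its log2 ratio of 0.88 ± 0.90 split into 1.85 from blocks 1 to 18 and -0.10 from blocks 19 to 36. The smooth muscle miRNAs miR-143 (0.51, but 1.50 and -0.47 in the block sets) and miR-145 (0.07 ± 0.36) did not pass 2-fold. In the stromal group, 0 of 6 measured on both days passed 2-fold in either direction, with a median of 0.33. The share past 2-fold over all 192 was 14.6%, so a count of 0 in such short lists says little about these cell types.

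MiR-130a, expressed in vascular cells, read 210, 273, 2887 and 1405 units on day 10 and 669, 1620, 8775 and 8546 on day 15. It was higher within each block set (1.44 and 1.87), and its log2 ratio was 1.65 ± 1.03. MiR-125b-5p gave a similar ratio with more scatter, 1.56 ± 1.48, from spots of 24, 980, 5332 and 3726 units on day 10 and 519, 2249, 11948 and 18639 on day 15. Its relative miR-125a-5p, which has the same seed, read 0.60 ± 0.99, from -0.56 in blocks 1 to 18 to 1.76 in blocks 19 to 36. All 5 measured members of the miR-125 and miR-99/100 families read above 0 over all spots, with 1 past 2-fold higher (8.85% over all 192). Their median was 0.52, which spike-in scaling turned to -0.44. The block sets did not share this sign throughout. MiR-99a and miR-100 read above 0 in blocks 1 to 18 but below it in blocks 19 to 36 (-0.51 and -0.79), and miR-125a-5p split the other way. MiR-125b-5p and miR-99b read above 0 in both block sets. Over all 192 miRNAs 90 (46.9%) read above 0 and 102 (53.1%) below.

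MiR-21, abundant in cardiac fibroblasts and known to increase in hypertrophic hearts, read lower on day 15. Its spots were 3701, 2506, 6549 and 6967 units on day 10 and 1758, 1682, 2167 and 2321 on day 15. Day 15 lay below day 10 in raw signal, but after normalization the spots overlapped, and the log2 ratio of -0.95 ± 0.39 fell just short of 2-fold (-0.55 and -1.35 in the block sets). Its log2 level was 12.83, 12.16, 11.21 and 11.57 on the TAC arrays of days 5 to 20, and 11.13 on sham. In raw signal the order of the first pair was the other way, 4273 units on day 5 and 4931 on day 10. The star strand miR-21* read 0.49 ± 0.33, on the other side of even. MiR-31, a stromal miRNA, was above the floor on day 10 alone (200 and -33.8 units), at least 1.78-fold lower on day 15. MiR-10a-5p was above the floor on day 15 alone (3.75 and 274 units), at least 1.58-fold higher over all spots, but blocks 1 to 18 gave a log2 ratio close to 0 and blocks 19 to 36 gave 1.75.

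The let-7 family, which restrains growth and RAS signalling, leaned lower. Of 8 measured members 6 read below 0 and 2 above (53.1% and 46.9% over all 192), and the median was -0.61 against -0.04 over all 192. Past 2-fold, 1 was lower and 0 higher, against 5.73% and 8.85% over all 192. The family median was -0.30 in blocks 1 to 18 and -1.06 in blocks 19 to 36, and negative under all 14 alternatives. The member past the threshold, let-7f, read 3141, 2800, 2620 and 1661 units on day 10 and 1085, 869, 657 and 710 on day 15. All its day 15 spots were below all its day 10 spots, and the log2 ratio of -1.41 ± 0.25 was alike in both block sets (-1.43 and -1.38). Let-7a read -0.96 ± 0.18 and let-7c -0.73 ± 0.42, the latter almost wholly from blocks 19 to 36 (0.01 and -1.48). Let-7b (0.50) and let-7i (0.45) read above 0 over all spots, but each had opposite signs in the block sets. In blocks 1 to 18 and then 19 to 36, let-7b read -0.37 and 1.38, and let-7i 1.26 and -0.35. Let-7e, below 0 over all spots, read 0.25 in blocks 1 to 18.

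All members of the family share the seed printed above, and their sequences differ little outside it. Counted from 1 at the 5′ end and with let-7a as reference, let-7f differs by G12A, let-7c by A19G, and let-7b by A17G and A19G. How far each probe also bound its relatives was not tested. In the genome let-7f lies beside let-7a and let-7d within 10 kb on GRCr8 chromosome 17, and let-7d read -0.63 ± 0.38. Another copy of let-7f lies beside miR-98 on chromosome X, and miR-98 read -0.55. The log2 level of let-7f was 12.96, 11.27, 9.86 and 9.94 on the 4 TAC arrays in order of time and 10.59 on sham.

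Most other lower miRNAs were dim or star strands with tight spots. MiR-183, best known from sensory cells, had the lowest ratio: it read 516, 624, 395 and 475 units on day 10 and 79, 64, 66 and 55 on day 15 (-1.51 ± 0.09). Its day 15 signal was little above the floor of 46.4 units, and plain background subtraction in place of normexp moved the ratio to -2.80. The star strand of the same hairpin, miR-183*, was brighter, at 762.75 and 812.5 units, and read 0.22 ± 0.39. Its block sets had opposite signs (0.76 and -0.31). MiR-34b* read 5318, 5446, 3219 and 2793 units on day 10 and 1435, 1287, 1277 and 1354 on day 15 (-1.37 ± 0.24). MiR-347 (-1.24 ± 0.05), miR-99b* (-1.23 ± 0.07), miR-433* (-1.23 ± 0.13), miR-1188-3p (-1.16 ± 0.10) and miR-138-2* (-1.07 ± 0.12) followed, each with day 15 spots all below day 10 spots. The same held for miR-375, an endocrine miRNA (-1.10 ± 0.28), while the spots of miR-672* overlapped (-1.23 ± 0.37).

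Of the 11 lower miRNAs 5 were star strands, and of the 17 higher 4 were, among 54 star strands in the 192. The median spot SD of the lower miRNAs was 0.23 on day 10 and 0.14 on day 15, and that of the higher miRNAs 0.97 and 0.98. Over all 192 miRNAs the day 15 spots lay wholly above the day 10 spots in 7 (3.65%) and wholly below in 27 (14.1%). By brightness, in the dimmest, middle and brightest 64 miRNAs, 5, 4 and 8 were past 2-fold higher and 3, 4 and 4 lower.

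MiR-17-5p, from the growth-promoting miR-17/92 cluster, read 735, 439, 708 and 1081 units on day 10 and 107, 171, 333 and 345 on day 15 (-1.11 ± 0.26). Within 10 kb of its hairpins on GRCr8 chromosomes 15 and X, miR-19a read -0.26, miR-19b 0.16, miR-20a 0.04 and miR-363* -0.86. Over the miR-17/92 and miR-106b/25 clusters 1 of 7 passed 2-fold, and the median was 0.04. MiR-99b* read -1.23 and its own guide strand miR-99b 0.52. The neighbours of that hairpin read -0.60 (let-7e), -0.08 (miR-3596c) and 0.60 (miR-125a-5p). MiR-30e* read 1.31 ± 0.80 and its guide miR-30e -0.13. Both strands of miR-499, both strands of miR-181a-2 and the miR-144 and miR-451 pair were above 0.

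**Figure D4:**
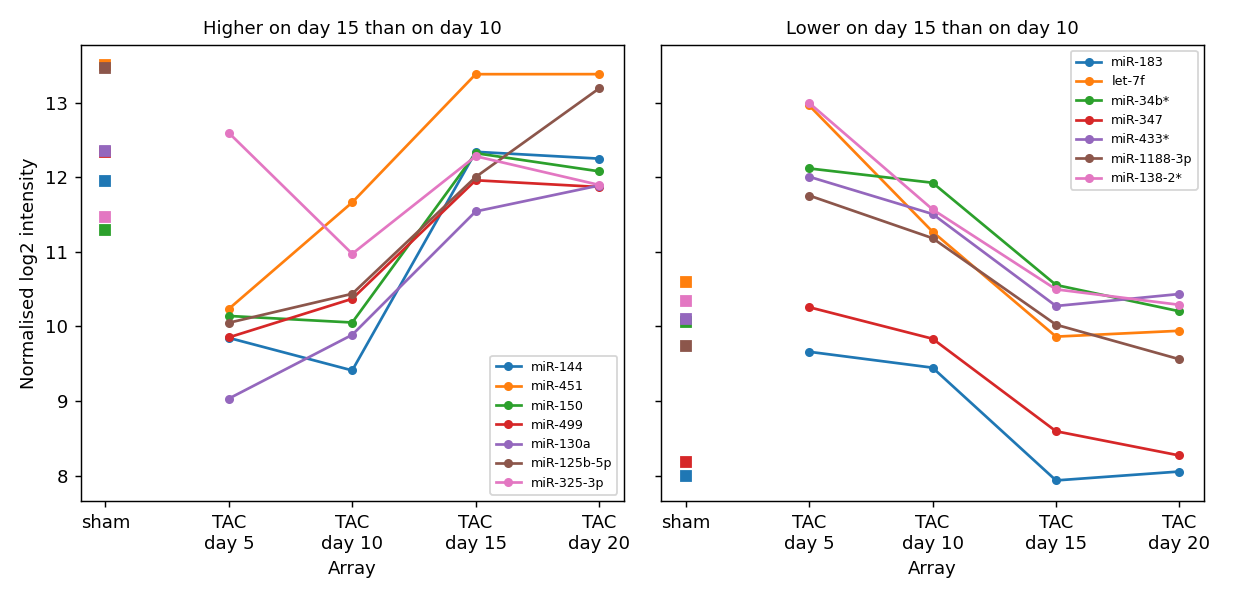
Normalised log2 intensity on the sham array (squares) and on the TAC arrays of days 5 to 20 (joined circles) for 7 miRNAs higher and 7 lower on day 15 than on day 10, with 1 array per point and no error between hearts. MiR-144 goes from 9.41 to 12.34 between days 10 and 15, and let-7f from 11.27 to 9.86.

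The remaining higher miRNAs were mostly dim on day 10 or had spots that overlapped between the days. Let-7c-1* read -19, -21, 273 and 262 units on day 10 and 609, 544, 973 and 974 on day 15 (1.76 ± 0.53), with all day 15 spots above. Plain background subtraction moved it to 5.36, and likewise miR-1949 to 4.75 and miR-148b-3p to 3.04. MiR-325-3p read 2139, 1783, 2870 and 1403 units and then 4041, 3858, 6467 and 6123 (1.31 ± 0.25), also without overlap. The normalised spots of miR-1949 overlapped between the days (1.55 ± 0.75), as did those of miR-33, a regulator of cholesterol export (1.30 ± 0.80). Blocks 1 to 18 alone gave 0.26 for miR-33, under 2-fold. MiR-34a, a p53 target, read 1.02 ± 0.83, and its sign turned with spike-in scaling (-0.13). MiR-148b-3p (1.01) and miR-221* (1.10) were close to the floor on day 10, at 55.2 and 46.8 units. The ratio of miR-148b-3p came from blocks 19 to 36 (1.94), since blocks 1 to 18 gave 0.08. Just outside the threshold lay miR-181d, miR-27a (-0.99), let-7i* (0.97), miR-9* (-0.97) and miR-22 (0.97), the last with 2 spots at the ceiling on each day.

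In the lists known from pressure overload, counts are set beside the 8.85% higher and 5.73% lower over all 192. Of 15 measured miRNAs that other work found to rise in loaded hearts, 2 read past 2-fold higher on day 15 (miR-125b-5p and miR-34a) and 0 lower, with a median of 0.17. MiR-195, which restrains cardiomyocyte division, read 0.88 ± 1.30, with opposite signs in blocks 1 to 18 (2.09) and 19 to 36 (-0.34). Of 18 measured miRNAs that other work found to fall, 1 was past 2-fold, miR-150, which read higher, and 14 read below 0, with a median of -0.34 against -0.04 over all 192. Median scaling brought that list median to -0.01, and the 192 to 0.13. All 3 members of the miR-29 family, which represses collagen genes, read below 0 (miR-29a -0.56 ± 0.79, miR-29b -0.47 ± 0.35, miR-29c -0.65 ± 0.20), though miR-29a read 0.23 in blocks 19 to 36. Both miR-26 members did as well (miR-26a -0.85 ± 0.27, miR-26b -0.35 ± 0.51), though miR-26b read 0.17 in blocks 19 to 36.

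The miR-30, miR-15/16, miR-23/27/24, inflammation and Dlk1-Dio3 lists and miR-222 held 0 or 1 miRNA past 2-fold, with 1 to 6 measured members each, against 14.6% over all 192. In the miR-30 family, 3 of 5 read below 0 with a median of -0.13, from miR-30d at -0.71 ± 0.34 to miR-30c at 0.55 ± 0.76. The family median was -0.13 in blocks 1 to 18 and 0.20 in blocks 19 to 36. In the miR-15/16 family, inhibitors of cell division, 4 of 5 read above 0 with a median of 0.38, from 1.33 in blocks 1 to 18 to -0.34 in blocks 19 to 36. The miR-23/27/24 clusters had a median of -0.12 (0.21 in blocks 1 to 18 and -0.46 in blocks 19 to 36), with miR-24 at 0.80 ± 0.79. The inflammation and hypoxia list had 1 of 5 past 2-fold (miR-34a) and a median of 0.16, with the hypoxia-responsive miR-210 at 0.53 ± 0.75. In the imprinted Dlk1-Dio3 region 6 of 48 probes were above the floor on both days, 0 passed 2-fold, and the median was -0.06. Of miR-221 and its relative miR-222, the latter was above the floor on both days, at -0.03. The medians of the muscle-enriched, miR-30, miR-23/27/24 and Dlk1-Dio3 lists, all near 0, turned positive with median scaling. MiR-675, processed from the imprinted H19 RNA, read 0.46 ± 0.11, with all day 15 spots above all day 10 spots.

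**Figure D5:**
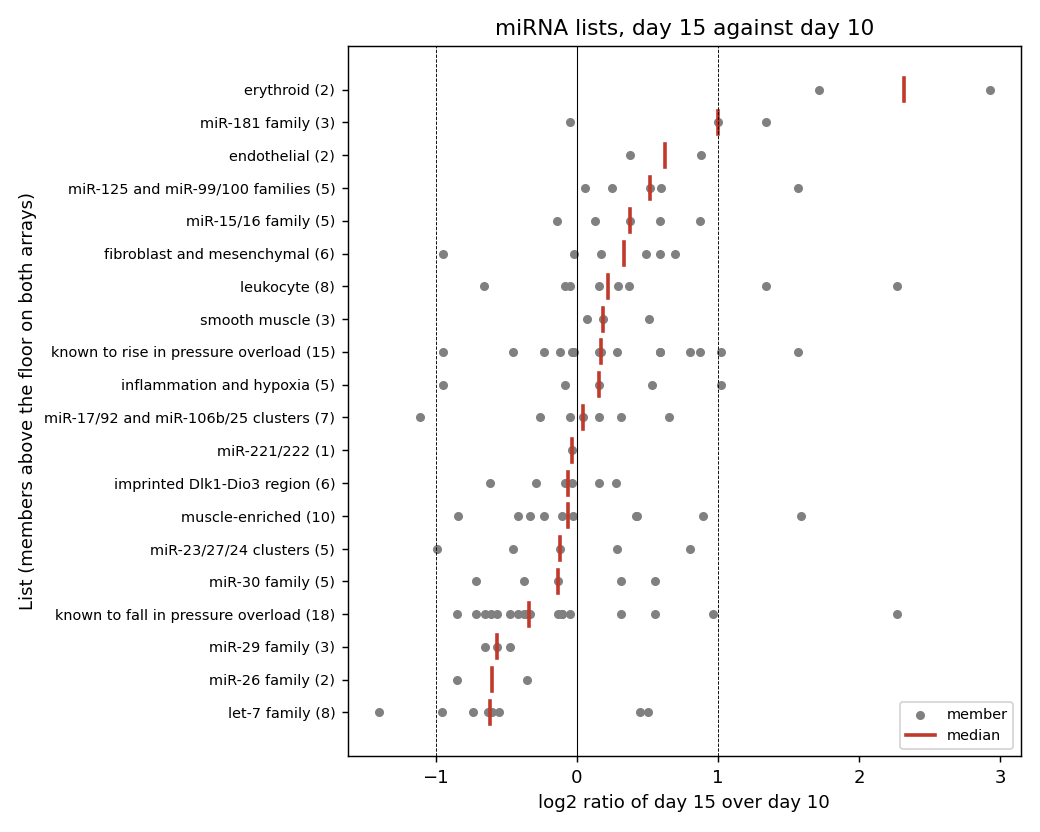
Log2 ratio of day 15 over day 10 for each measured member of 20 miRNA lists (grey points) with the list median (red bars), dashed lines marking 2-fold and the number of members in brackets. The 2 erythroid miRNAs lie past 2-fold higher, and the let-7, miR-26 and miR-29 medians lie below -0.5.

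For miRNAs above the floor on 1 day alone, a bound was computed against the dim array, using the higher of the probe's own level there and the lowest level among rat miRNAs above the floor. On day 15 alone, 15 were above the floor and 2 of them had values past 2-fold higher. These were miR-34c* (39.2 and 432 units, 2.56-fold) and miR-542-3p (42 and 370 units, 2.35-fold). For both, the probe's own day 10 level was the one used, so the value is the plain ratio and not a lower limit. For miR-542-3p that ratio rests on blocks 19 to 36, where the log2 ratio was 2.40, since blocks 1 to 18 gave 0.06. On day 10 alone, 21 were above the floor and miR-483* (237 and 15 units) was the 1 at least 2-fold lower, by at least 2.07-fold. Smaller bounds held for miR-224 (at least 1.51-fold) on the lower side and for miR-139-5p (at least 1.68-fold) on the higher side. The latter again came from blocks 19 to 36 (1.59) and not from blocks 1 to 18 (-0.03). For miR-434, 1.54-fold lower, the value is again the plain ratio.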

How the data were processed

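Rat heart RNA was measured on 1-colour arrays, 1 array per group, and p-values are absent because no group has replicates. Per the file headers, the deposited raw table holds, for 12312 spots, a foreground intensity and a second intensity with the authors' background taken off, both before any normalization. The sources used here name neither scanner nor image software. The authors' deposited ratio table divides each probe's median signal by 1 constant per array (1036.5 on day 10, 991 on day 15), as found from the values.

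Background correction used normexp on the foregrounds, offset 50 (limma 3.58.1, R 4.3.3), the 5 arrays were quantile normalized over rat miRNA spots, and the 4 spots were averaged on the log2 scale. The offset shrinks ratios of dim probes. The detection floor was the median plus 3 scaled MAD of empty and negative-control spots. Median background was 152 units on day 10 and 144 on day 15. The SE covers spots only. The number of arrays limits precision. The procedure was run on simulated data with spot noise but no gap between block sets, and with only bright miRNAs changed. That run cannot speak to the block-set limit or to dim miRNAs.

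Named miRNAs were those at 2-fold with spots that did not overlap, those at 2-fold in both block sets of the slide, up to 4 members of each of 20 lists, 12 fixed by name, and the largest bounds. Members of a list, neighbours and the miRNAs near the threshold are named beyond the rule, chosen after their values were seen, as are the other miRNAs past 2-fold. The members and lists were chosen with earlier results of these data known. Alternatives covered background correction, scaling, floor, spot summary, block set and the authors' ratios.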

Additional observations from a re-analysis of the deposited data

Results flagged for a closer look

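Probes outside the rat miRNAs also gave signal on both arrays. Of 1901 probes without a name, 386 were above the floor on day 10 and day 15. Relative to the rat miRNA median their median log2 difference was 0.07, and 24 read 2-fold or more higher and 18 lower on day 15. Of 22 small nuclear and nucleolar RNA probes, 11 were above the floor on both arrays, with a median log2 difference of 0.60 and a range from -0.50 to 1.81. Of these 4 read 2-fold or more higher on day 15 and 0 lower.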

How the results depend on the processing

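No paired analysis was possible because every group was a single array. The count of 28 miRNAs at 2-fold (17 higher, 11 lower) became 71 (43 higher, 28 lower) with plain background subtraction and 59 (32 higher, 27 lower) in the authors' processed ratios. It became 46 (33 higher, 13 lower) in blocks 1 to 18 alone, 53 (23 higher, 30 lower) in blocks 19 to 36 alone and 108 (2 higher, 106 lower) with spike-in scaling, through the shift common to all miRNAs. Median scaling gave 25 higher and 9 lower, and quantile normalization over all spots other than controls 23 and 9, with typical ratios shifted by 0.18 and 0.08. With the other 7 alternatives each count was within 1.5 times. Between 13 and 17 of the 17 higher miRNAs were past 2-fold higher under every alternative except spike-in scaling, where miR-144 and miR-150 were the 2. Of the 11 lower, between 8 and 11 were. No miRNA past 2-fold changed sign except miR-34a, at -0.13 with spike-in scaling. The bounds were not recomputed. With 1 array a side, the signal over the floor limits which miRNAs can be compared at all.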
